A study of Mus musculus with 12 samples.

Results

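Interferon-induced genes were examined in whole colorectal tissue of male C57BL/6 mice, in which colitis-associated cancer (CAC) was induced with azoxymethane (AOM), a carcinogen, and dextran sodium sulfate (DSS), which injures the colonic epithelium. The genes are 40 named symbols, and 39 of them were among the 18514 genes of the count table. Mx2 was not found in it under that name. The members were taken from the table by symbol, but the list of symbols was chosen with earlier results of these data known. Each of the 4 groups held 3 mice with 1 RNA-seq library per mouse: Ctrl received neither AOM/DSS nor swimming, Ctrl_Swim swam only, Model received AOM/DSS without swimming, and Model_Swim received both. All mice were juvenile when bought, and the labels name no transgene or deletion in any group. Swimming began before AOM/DSS and lasted through it, and the mice that did not swim were placed in shallow water of the same tank. The tissue was taken from colon without separation of tumor from surrounding mucosa, as far as the sources used here state, so fewer cells of a type and less RNA per cell cannot be told apart.

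Interferons are cytokines released when cells sense viral or bacterial material or when T cells and natural killer cells are activated. Type I interferons signal through Ifnar1 and Ifnar2 to a complex that holds Stat2 and Irf9 and binds the interferon-stimulated response element (ISRE), whereas interferon-gamma signals through Ifngr1 and Ifngr2 to factors that bind the gamma-activated site (GAS). Typical type I targets are the Ifit proteins, which bind foreign RNA, the Oas enzymes, which sense double-stranded RNA, and Isg15, a ubiquitin-like modifier. Typical interferon-gamma targets are the guanylate-binding proteins (Gbp) and immunity-related GTPases (Irgm1, Irgm2, Igtp, Iigp1), which attack vacuoles of intracellular microbes, and the immunoproteasome subunits Psmb8, Psmb9 and Psmb10, which shape peptides for antigen presentation. Many of these genes respond to both kinds of interferon.

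The promoters below are shown because they hold the binding letters of these pathways in members of both types. They are the 160 bases just before the annotated transcript start, from RefSeq (GRCm38.p6), written 5′ to 3′ in the direction of the gene, with capitals marking each match to an ISRE core (GAAANNGAA, on either strand) or a GAS (TTCNNNGAA). The type I members are Isg15 at chr4:156200819-156200978 (minus strand) and Ifit1 at chr19:34640729-34640888 (plus strand). The interferon-gamma type members are Gbp2 at chr3:142620503-142620662 (plus strand), Gbp7 at chr3:142530176-142530335 (plus strand), Igtp at chr11:58199396-58199555 (plus strand) and Irgm2 at chr11:58214817-58214976 (plus strand). None of these windows overlaps an exon of the GENCODE annotation of GRCm38.
Isg15: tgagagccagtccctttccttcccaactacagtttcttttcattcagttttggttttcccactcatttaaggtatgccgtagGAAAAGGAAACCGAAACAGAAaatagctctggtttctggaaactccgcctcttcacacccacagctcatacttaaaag
Ifit1: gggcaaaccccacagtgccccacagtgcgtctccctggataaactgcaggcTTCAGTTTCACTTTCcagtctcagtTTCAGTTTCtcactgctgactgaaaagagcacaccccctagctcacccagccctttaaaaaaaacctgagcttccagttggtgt
Gbp2: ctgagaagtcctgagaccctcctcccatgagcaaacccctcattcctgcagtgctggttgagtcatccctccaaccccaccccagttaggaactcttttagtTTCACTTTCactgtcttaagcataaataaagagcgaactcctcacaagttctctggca
Gbp7: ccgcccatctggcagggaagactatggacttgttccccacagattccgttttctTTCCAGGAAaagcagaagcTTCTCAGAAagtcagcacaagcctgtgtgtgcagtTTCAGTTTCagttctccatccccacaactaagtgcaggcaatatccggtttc
Igtp: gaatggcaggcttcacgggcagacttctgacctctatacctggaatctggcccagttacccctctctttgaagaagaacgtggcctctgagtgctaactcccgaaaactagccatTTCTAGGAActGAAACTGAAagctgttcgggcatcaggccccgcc
Irgm2: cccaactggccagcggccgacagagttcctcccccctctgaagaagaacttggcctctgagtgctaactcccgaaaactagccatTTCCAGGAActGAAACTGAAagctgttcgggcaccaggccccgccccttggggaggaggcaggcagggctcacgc

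RefSeq promoters were found for 28 of the 40 members, 32 promoters in all. They were not found for Gbp4, Gbp6, Gbp8, Gbp9, Dhx58, Zbp1, Iigp1, Parp14, Oas2, Usp18, Mx2 and Rtp4. Matches on either strand were counted in the 250 bases before each start, and matches may overlap each other. An ISRE core occurred in 16 of the 32 members' promoters, against 7.13% of 32851 promoters of all genes. A GAS occurred in 9 of the 32, against 7.02% of all promoters. Of the type I promoters, 5 of 9 held an ISRE core and 2 of 9 a GAS. Of the interferon-gamma type promoters, 7 of 11 held an ISRE core and 5 of 11 a GAS. Ifit1, Ifit3 and Isg15 each had 3 ISRE cores and no GAS in this window, whereas Gbp5, Gbp7, Igtp and Irgm2 each had both kinds of letters, as did the type I gene Oas1a. Neither annotated start of Ifit2 had an ISRE core in its window. A match describes letters only and shows no binding.

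**Figure D1:**
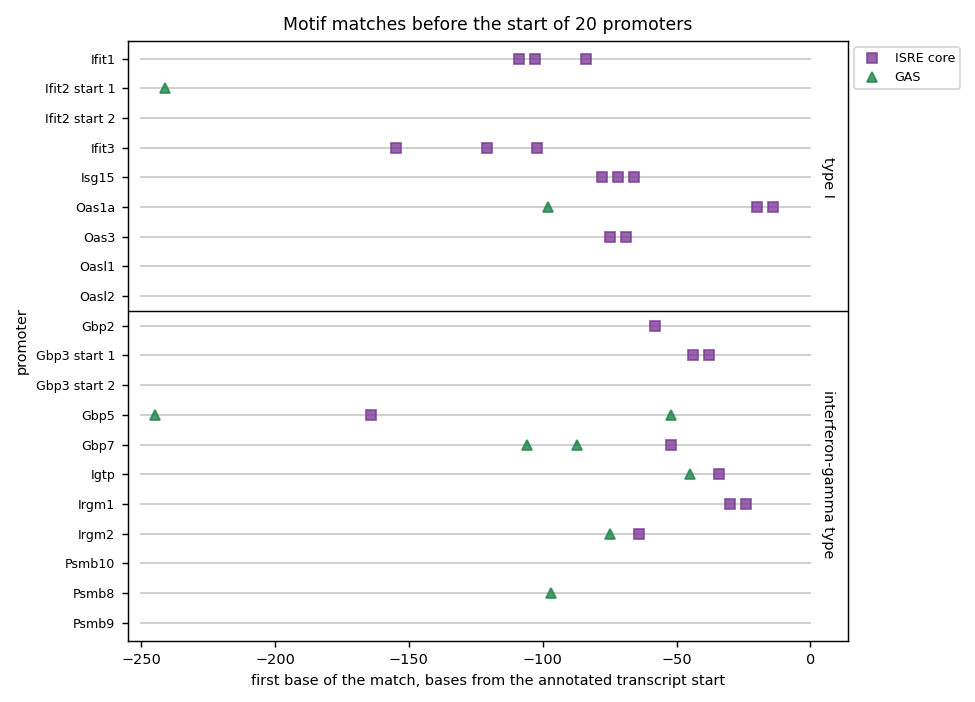
Positions of the matches to the ISRE core (squares) and the GAS (triangles) in the 250 bases before the annotated start of 20 promoters, 9 of type I genes above the line and 11 of interferon-gamma type genes below it. The x axis is the first base of each match in bases from the transcript start. Ifit1, Ifit3 and Isg15 show 3 squares each, and Oas1a, Gbp5, Gbp7, Igtp and Irgm2 show both symbols.

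The libraries held 17256953 to 19451055 counted reads, and all 39 members present passed the filter on low counts, as did 15484 genes in all. Levels are given as CPM, the read counts brought to a common library size with TMM scaling. All 10 colonic epithelium markers had counts in every library. The 12 pancreatic acinar genes read as a check summed to 41737 CPM in Model 1 and 20381 CPM in Model 3, against 13.4 to 96.7 CPM in the other 10 libraries. Squamous epithelium markers (7 genes) summed to 480 CPM in Model 1, 1299 CPM in Model 2, 99.3 to 960.5 CPM in Model_Swim and 3.44 CPM in Model 3, against 2.73 to 3.86 CPM in Ctrl and at most 301.3 CPM in Ctrl_Swim. Without Model 1, 15 of 39 members and 5034 of 15635 genes in all were called in Model vs Ctrl. Without Model 3, 12 of 39 members and 5620 of 15681 genes in all were. Each of these fits keeps the other of these libraries and Model 2, so neither can tell what part the pancreatic or squamous reads had.

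In Ctrl the members differed widely in level per transcript length. Irf7, a transcription factor that amplifies interferon production, was highest, with a mean of 81.8 ± 6.23 FPKM (SD, n = 3). Psmb10 followed with 51.6 ± 2.28 FPKM and Oas1a with 47.7 ± 1.15 FPKM. The lowest were Gbp5 with 1.61 ± 0.143 FPKM and Gbp8 with 0.878 ± 0.184 FPKM. The gaps from Irf7 to Psmb10 and from Psmb10 to Oas1a were larger than the SD of either gene, whereas Gbp4, Gbp6 and Gbp9, with 2.21 to 2.23 FPKM, did not differ beyond their spread.

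AOM/DSS was compared with no treatment in mice that did not swim (Model vs Ctrl). Of the 39 members, 13 passed the test (edgeR quasi-likelihood, Benjamini-Hochberg adjusted p under 0.05 over all 15484 genes), 12 higher and 1 lower in Model. That is 33.3% of the members in either direction, against 32.7% of all genes, so the share called at all was near the background. Higher calls made up 30.8% of the members against 16.5% of all genes, and lower calls were 1 of 39 against 16.2% of all genes. With the study's added limit on the fold (over 2 or under 0.5), 7 members were called, against 7.43% of all genes. The median log2 fold change was 0.37 over the members and 0.01 over all genes. The Model and Ctrl mice did not overlap, with Model higher, in 13 members (21% of all genes) and, with Model lower, in 2 (23.2% of all genes). An exact permutation test of 3 mice against 3 cannot go below p = 0.1, so single genes rest on the fit across all genes.

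Of the 13 calls, 7 held in each of 21 other analyses at the same threshold: Ifit2, Gbp4, Gbp5, Gbp6, Gbp7, Gbp8 and Gbp9. With the limit on the fold, Gbp6 and Gbp7 were not called. Only these 7 were called without Ctrl 2 and without Model 2, and these with Irgm2, 8 in all, without Ctrl 3. Fewer genes were called in these fits over the whole table as well (3160, 3600 and 3273, against 5066 with every mouse). The other 6 calls, Gbp2, Irgm2, Iigp1, Rsad2, Parp14 and Psmb10, were each lost when at least 1 single mouse was left out.

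**Figure D2:**
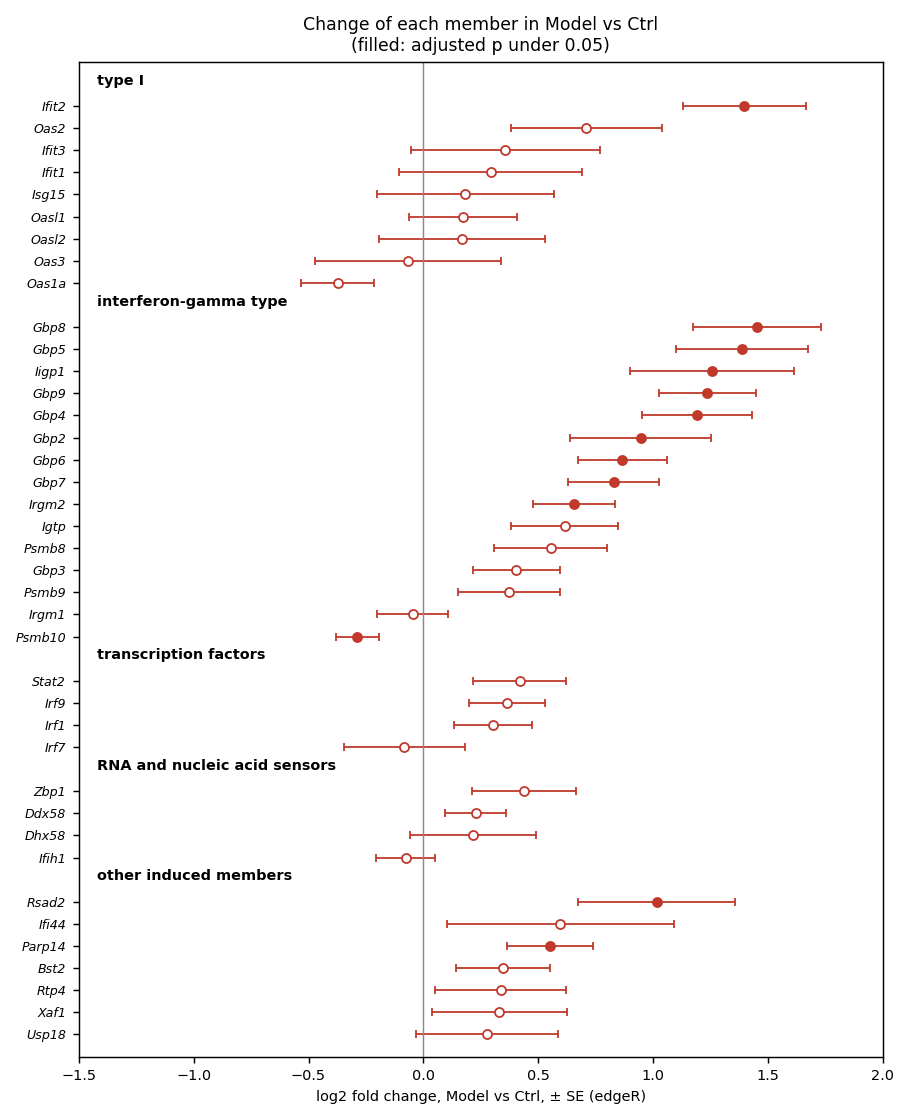
Log2 fold change in Model vs Ctrl (x axis, with SE from edgeR) of each of the 39 members, grouped by role on the y axis. Filled points passed an adjusted p of 0.05: 1 of 9 type I genes, 10 of 15 interferon-gamma type genes, none of the 4 transcription factors or 4 sensors, and 2 of 7 other members.

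Among the 9 type I genes, only Ifit2 was called higher, which is 11.1% against 16.5% of all genes. The estimate was higher in Model in 7 of the 9. The level of Ifit2 was 23.0, 21.4 and 13.9 CPM in Ctrl 1, 2 and 3 and 51.0, 50.5 and 51.9 CPM in Model 1, 2 and 3. The Model mice lay close together and all above the Ctrl mice, and the log2 fold change was 1.40 ± 0.27 (SE, adjusted p = 0.00367). Ifit1, beside it in the gene cluster on chromosome 19 (34550550 to 34650009, GRCm38.p6), was at 61.5, 49.4 and 35.7 CPM in Ctrl and 42.2, 43.3 and 94.2 CPM in Model. Only Model 3 lay above the Ctrl mice, and the log2 fold change of 0.29 ± 0.40 did not pass (adjusted p = 0.598). Ifit3, between these genes, was at 19.98, 14.6 and 13.9 CPM in Ctrl and 16.7, 13.0 and 32.4 CPM in Model, again with Model 3 alone above Ctrl (0.36 ± 0.41, adjusted p = 0.532). Ifit3 shares 31.7% of its 100-base windows with another transcript, mainly that of Ifit3b, so its count is uncertain. Ifit1 shares 3.29% and Ifit2 none.

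Isg15 was at 24.3, 22.7 and 16.5 CPM in Ctrl and 20.4, 23.2 and 28.4 CPM in Model, and the groups overlapped (log2 fold change 0.18 ± 0.38, adjusted p = 0.740). Oas1a was at 99.7, 95.1 and 101.3 CPM in Ctrl and 69.1, 71.0 and 88.6 CPM in Model. All Model mice lay below the Ctrl mice, yet the log2 fold change of -0.37 ± 0.16 did not pass (adjusted p = 0.0924), and 40.9% of its windows are shared, mainly with Oas1g. Oas2 went the other way, with 19.9, 18.5 and 19.4 CPM in Ctrl and 26.7, 25.3 and 42.5 CPM in Model (0.71 ± 0.33, adjusted p = 0.117). The Oas2 groups did not overlap either. Oas1a and Oas2 both passed when only the groups compared entered the fit. Oas3, Oasl1 and Oasl2 had log2 fold changes between -0.07 and 0.17, and none passed. Over the 9 type I genes the median log2 fold change was 0.18.

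**Figure D3:**
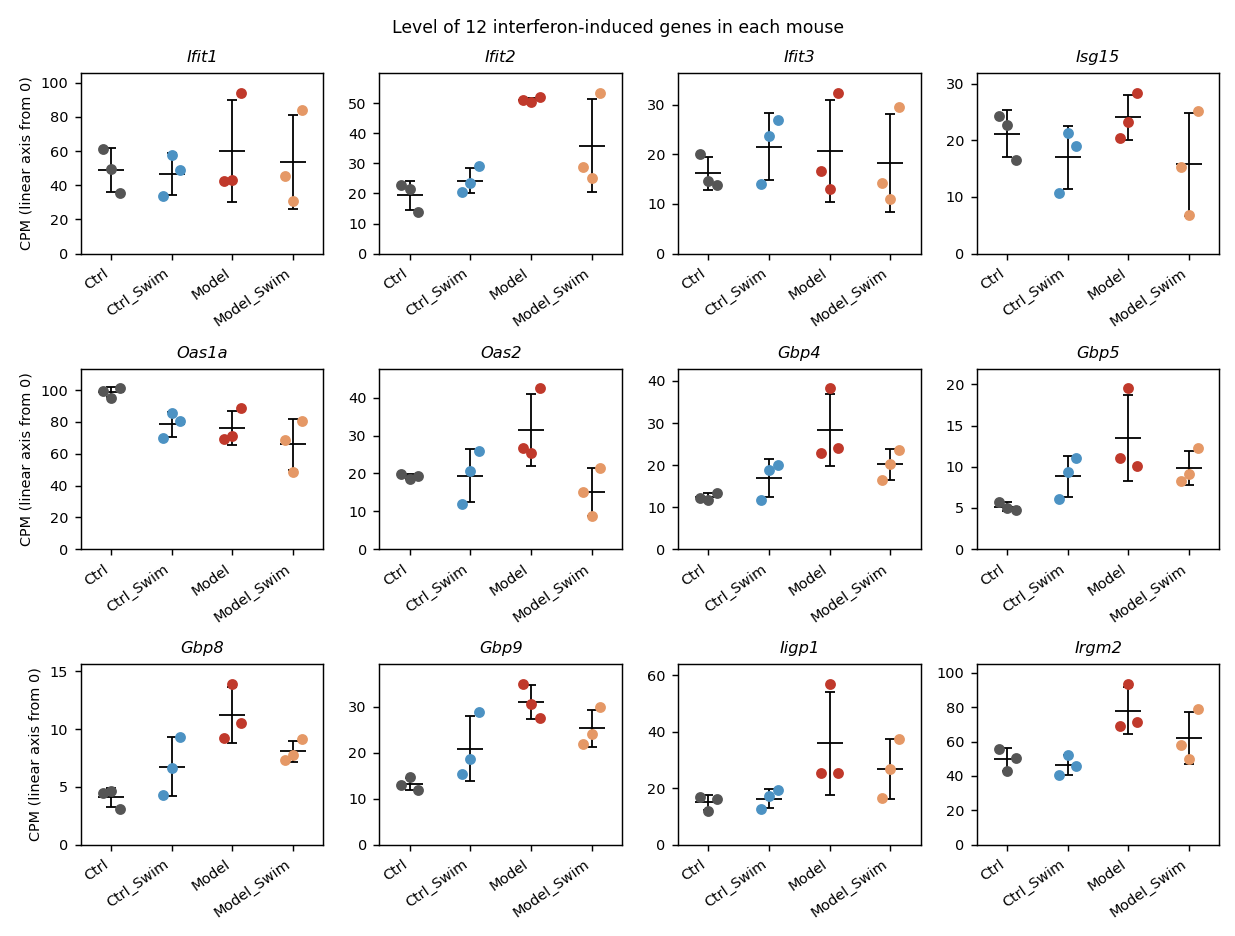
Level in CPM (y axis, linear from 0) of 12 members chosen for this plot after their values were seen, by group on the x axis. Points are mice, and black lines are the mean ± SD (n = 3). Ifit2 is at 50.5 to 51.9 CPM in Model against 13.9 to 23.0 CPM in Ctrl, whereas of the Model mice only Model 3 is above Ctrl in Ifit1 and Ifit3.

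Among the 15 interferon-gamma type genes, 9 rose and 1 fell in Model vs Ctrl, which is 60% higher calls against 16.5% of all genes. Their median log2 fold change was 0.83. The Gbp genes made up most of this: 7 of 8 rose. Gbp9 was at 13.0, 14.7 and 11.9 CPM in Ctrl and 35.1, 30.7 and 27.6 CPM in Model, where all mice lay above Ctrl (log2 fold change 1.24 ± 0.21, adjusted p = 0.00218). Gbp8 was at 4.47, 4.69 and 3.13 CPM in Ctrl and 9.22, 13.9 and 10.5 CPM in Model (1.45 ± 0.28, adjusted p = 0.00358). Gbp4 was at 12.3, 11.6 and 13.4 CPM in Ctrl and 22.8, 38.3 and 24.0 CPM in Model (1.19 ± 0.24, adjusted p = 0.00454). In Gbp8 and Gbp4 no Model mouse overlapped Ctrl, and Model 2 was highest.

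Gbp6 rose less, by 0.87 ± 0.20 on the log2 scale (adjusted p = 0.00761), from 10.6 to 12.5 CPM in Ctrl to 16.9 to 25.3 CPM in Model. It shares 64.5% of its windows with other transcripts, mainly of Gm43302, so its count is the least certain of the members. Gbp4, Gbp6, Gbp8 and Gbp9 form 1 cluster on chromosome 5 (105012513 to 105295871), and 4 of 4 rose. The other Gbp cluster lies on chromosome 3 (142496934 to 142638008), where 3 of 4 rose. Gbp5, which also promotes inflammasome assembly, was at 5.74, 5.02 and 4.78 CPM in Ctrl and 11.04, 19.6 and 10.05 CPM in Model (1.39 ± 0.29, adjusted p = 0.00509). Gbp7 was at 17.1 to 19.9 CPM in Ctrl and 26.1 to 40.8 CPM in Model (0.83 ± 0.20, adjusted p = 0.00979). In both genes the groups did not overlap.

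Gbp2 was at 32.2, 24.4 and 32.5 CPM in Ctrl and 52.9, 87.4 and 31.3 CPM in Model. Model 2 was far above the others and Model 3 lay within Ctrl, so that the log2 fold change of 0.95 ± 0.31 (adjusted p = 0.0367) was 0.53 without Model 2 (adjusted p = 0.155). It also missed the threshold without Ctrl 1, Ctrl 2 or Ctrl 3 (adjusted p = 0.0724, 0.119 and 0.0735). Gbp3 had 16.7 to 18.5 CPM in Ctrl and 20.5 to 27.4 CPM in Model, with no overlap, and did not pass (0.40 ± 0.19, adjusted p = 0.119).

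Of the immunity-related GTPases, Iigp1 was at 16.7, 12.05 and 16.3 CPM in Ctrl and 25.2, 57.0 and 25.4 CPM in Model. All Model mice were above Ctrl and Model 2 stood apart. Its log2 fold change of 1.26 ± 0.36 (adjusted p = 0.0213) was 0.77 when Model 2 was left out (adjusted p = 0.0851). Leaving out Ctrl 2 or Ctrl 3 also lost the call (adjusted p = 0.0805 and 0.0540). Irgm2 rose by 0.65 ± 0.18 (adjusted p = 0.0179), from 42.7 to 55.6 CPM to 69.0 to 93.7 CPM, but did not pass without Ctrl 2 (adjusted p = 0.0698) or without Model 2 (adjusted p = 0.0643). Igtp, its neighbour on chromosome 11, had 24.2 to 30.2 CPM in Ctrl and 34.7 to 50.5 CPM in Model. The Igtp groups did not overlap, and the log2 fold change of 0.62 ± 0.23 missed the threshold (adjusted p = 0.0622). Igtp was called in 6 of the 21 other analyses, among them DESeq2 and limma, and its adjusted p ranged from 0.0262 to 0.200 over them. Irgm1, elsewhere on that chromosome, was at 76.4 to 90.1 CPM in Ctrl and 64.5 to 90.9 CPM in Model (-0.05 ± 0.16, adjusted p = 0.838).

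The immunoproteasome subunits did not move together. Psmb10 fell by 0.29 on the log2 scale (SE 0.09, adjusted p = 0.0366), from 95.9, 92.7 and 102.0 CPM in Ctrl to 72.9, 81.7 and 83.5 CPM in Model, where every mouse lay below Ctrl. This call was lost in 11 of 21 alternatives, among them those that left out any mouse of Ctrl or Ctrl_Swim, Model 1 or Model 2, and limma on FPKM. Psmb8 had 39.5 to 50.5 CPM in Ctrl and 48.1, 93.7 and 54.4 CPM in Model (0.55 ± 0.25, adjusted p = 0.102). Psmb9 had 21.1 to 28.8 CPM in Ctrl and 25.7, 43.4 and 26.2 CPM in Model (0.37 ± 0.22, adjusted p = 0.216). In both, the groups overlapped and Model 2 was highest.

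The members that rose were mostly those low in Ctrl: of the 10 members with the lowest mean FPKM in Ctrl (0.878 to 4.14), 9 rose, against 3 of the other 29 (4.41 to 81.8 FPKM). Over all genes 16.5% were called higher, and no share was taken for genes of like level. The 10 lowest include Gbp4, Gbp5, Gbp6, Gbp7, Gbp8 and Gbp9, so the split largely repeats the result of the Gbp genes. The cut at 10 falls between Ifit2, which was called, and Oas2, which was not. The fold change and this order share the Ctrl libraries, so the counts are a description.

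Neither the 4 transcription factors nor the 4 sensors of foreign nucleic acid passed the test in Model vs Ctrl (1 and 0 genes at an unadjusted p under 0.05, and 0 of either with DESeq2). Stat2 was at 75.5, 66.4 and 62.7 CPM in Ctrl and 64.1, 100.1 and 109.2 CPM in Model (0.42 ± 0.20, adjusted p = 0.130). Irf9 was at 43.1 to 49.6 CPM and 48.8, 57.8 and 75.7 CPM (0.36 ± 0.17, adjusted p = 0.110). In both genes Model 1 lay within the range of Ctrl, and both passed without it. Irf1, an early target of interferon-gamma, had a log2 fold change of 0.30 ± 0.17 and Irf7 one of -0.08 ± 0.26. Of the sensors, Zbp1, which binds Z-form nucleic acid, had 0.44 ± 0.23 (adjusted p = 0.156), and Ddx58 (RIG-I), Dhx58 and Ifih1 (MDA5) lay between -0.08 and 0.23.

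Of the other 7 members measured, Rsad2 (viperin, an antiviral enzyme) and Parp14 (an ADP-ribosyltransferase) rose. Rsad2 was at 12.3, 12.2 and 9.79 CPM in Ctrl and 11.6, 25.1 and 32.7 CPM in Model, so Model 1 lay within Ctrl (1.02 ± 0.34, adjusted p = 0.0423). Parp14 was at 131, 107 and 108 CPM in Ctrl and 121, 183 and 201 CPM in Model, with Model 1 again within Ctrl (0.55 ± 0.19, adjusted p = 0.0418). Both calls failed without Ctrl 2, Ctrl 3, Model 2 or Model 3, with adjusted p between 0.0875 and 0.124 for Rsad2 and between 0.104 and 0.114 for Parp14. Rsad2 also missed the threshold without Ctrl 1 (0.0809) and, barely, without Ctrl_Swim 3, and Parp14 barely without Model_Swim 1. Ifi44, Usp18, which removes Isg15 from proteins, Bst2 (tetherin), Rtp4 and Xaf1 had log2 fold changes between 0.28 and 0.60, and none passed.

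The type I and interferon-gamma type lists differed in how the Model mice were ordered. The median over the type I genes of log2 CPM minus the Ctrl mean was -0.12 in Model 1, 0.06 in Model 2 and 0.62 in Model 3. The same median over the interferon-gamma type genes was 0.51, 1.13 and 0.54. Model 3 was the highest Model mouse in 9 of 9 type I genes, and Model 2 in 12 of 15 interferon-gamma type genes. Over all genes tested, Model 3 was the highest Model mouse in 38.4% and Model 2 in 29.9%.

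The median log2 fold change of the type I list minus that of the interferon-gamma type list was -0.65 in Model vs Ctrl. Since single Model mice carried different lists, this difference was -0.28 without Model 2, -0.99 without Model 3 and -0.60 without Model 1. It was below 0 in each of the 21 alternatives. Leaving out a Ctrl_Swim or Model_Swim mouse could hardly move it (-0.65 each time), since neither group enters this comparison. No test was made of the difference, because genes of a list are not replicates. Within each mouse the difference of the list medians was -0.63 in Model 1, -1.07 in Model 2 and 0.08 in Model 3, against -0.12 to 0.08 in Ctrl, so Model 3 did not show it. It was -0.50, -0.10 and -0.13 in Ctrl_Swim 2, 3 and 4, so Ctrl_Swim 2, without AOM/DSS, came near Model 1. In Model_Swim 1, 2 and 3 it was -0.39, -1.08 and -0.41.

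**Figure D4:**
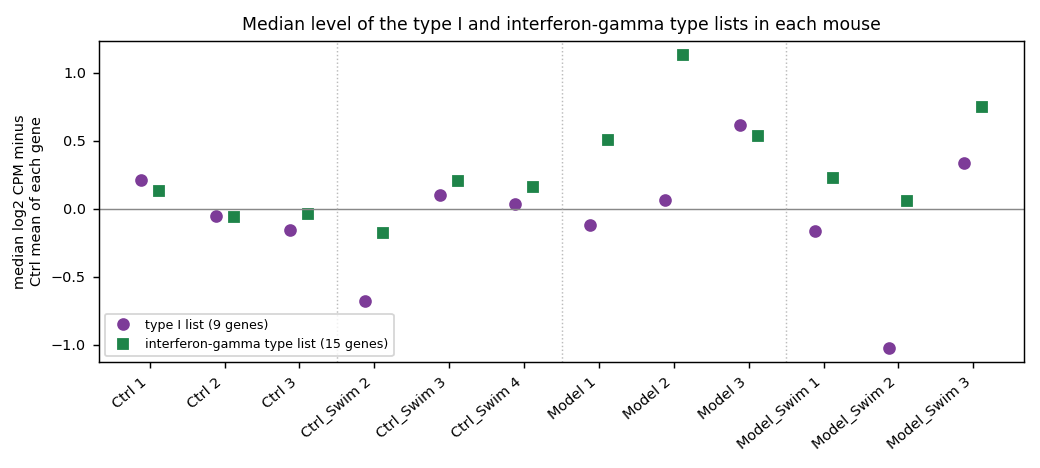
Median over the 9 type I genes (circles) and the 15 interferon-gamma type genes (squares) of log2 CPM minus each gene's Ctrl mean (y axis), for each of the 12 mice (x axis). In Model 1 and 2 the squares lie above the circles by 0.63 and 1.07, in Model 3 they do not, and in Model_Swim 2 the type I median is at -1.02.

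Upstream of the members, transcripts of the interferons themselves were at the limit of detection. Of 21 ligand genes listed, 5 were in the table and none passed the filter on low counts. Ifng had 2, 3 and 0 reads in Ctrl 1, 2 and 3, 4, 11 and 3 in Model 1, 2 and 3, 1, 3 and 1 in Ctrl_Swim 2, 3 and 4, and 0, 0 and 7 in Model_Swim 1, 2 and 3. The highest counts were in Model 2 and Model_Swim 3, the same mice in which the interferon-gamma type median was highest. Model_Swim 3 was the highest of its group in 39 of 39 members, type I genes included, and a link with Ifng was not tested. Ifng did not pass the filter on low counts and was not tested, and Ctrl 2 and Model 3 had the same number of reads. Ifne, Ifnz and Ifnab had counts in 2, 1 and 1 libraries, and Ifnl3 in none, where a count of 0 allows up to 3 reads, or 0.153 to 0.172 CPM.

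Of the 10 receptor and signal transducer genes, 5 rose in Model vs Ctrl and none fell, against 16.5% of all genes called higher. Ifnar2, a chain of the type I receptor, was at 12.8, 16.4 and 15.1 CPM in Ctrl and 27.2, 28.1 and 28.0 CPM in Model (0.91 ± 0.11, adjusted p = 0.000537). Ifnar1, the other chain, rose by 0.42 ± 0.06 (adjusted p = 0.000701). The groups did not overlap in either chain. Ifnlr1 (0.56 ± 0.17, adjusted p = 0.0308), Jak2 (0.25 ± 0.08, adjusted p = 0.0382) and Jak1 (0.19 ± 0.05, adjusted p = 0.0164) also rose. The interferon-gamma receptor chains Ifngr1 and Ifngr2 had -0.02 and -0.19.

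The list of 8 genes grouped here as negative regulators holds 2 that rose and 1 that fell, so that 37.5% were called, near the 32.7% of all genes. Socs3, an inhibitor of Jak signalling that also answers interleukin-6, rose from 9.95 to 12.5 CPM in Ctrl to 31.3 to 49.6 CPM in Model (1.97 ± 0.36, adjusted p = 0.00284). Ptpn6 rose by 0.29 (adjusted p = 0.0483). Isg20, an RNA exonuclease, fell by 0.38 on the log2 scale (adjusted p = 0.0167). It is a negative regulator by its place in the list only, and its fall is counted again among the other interferon-induced genes.

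Of the 36 other interferon-induced genes tested, 12 rose and 1, Isg20, fell, so that 36.1% were called, near the 32.7% of all genes. Higher calls alone made up 33.3%, against 16.5% of all genes, and lower calls were 1 of 36, against 16.2% of all genes. Nlrc5, the transactivator of MHC class I genes, was at 14.8, 12.5 and 11.5 CPM in Ctrl and 31.7, 61.5 and 39.5 CPM in Model (1.77 ± 0.33, adjusted p = 0.00303). Tgtp1 and Tgtp2, further interferon-gamma inducible GTPases, rose by 1.78 (adjusted p = 0.0182) and 1.52 (adjusted p = 0.00432). Slfn8 and Gm4951 rose by 1.45 and 1.38. Model 2 was the highest mouse in Nlrc5, Tgtp1, Tgtp2 and Gm4951, as in most Gbp genes, and Model 3 in Slfn8.

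Markers of some immune cell types also rose in Model vs Ctrl, where 16.5% of all genes were called higher. All 10 macrophage markers had counts in every library, 9 of them rose, and their sum was 435 to 450.2 CPM in Ctrl, 397 to 503 CPM in Ctrl_Swim, 832 to 900.6 CPM in Model and 713 to 855 CPM in Model_Swim. Of 9 T cell markers 6 rose, with sums of 26.8 to 33.0 CPM in Ctrl, 31.8 to 72.5 CPM in Ctrl_Swim, 58.1 to 94.0 CPM in Model and 54.0 to 57.8 CPM in Model_Swim. Of 8 B cell markers 7 rose, with sums of 34.9 to 72.7 CPM in Ctrl, 46.7 to 144.5 CPM in Ctrl_Swim, 140.6 to 161 CPM in Model and 45.9 to 75.3 CPM in Model_Swim. Each immune list had counts for every marker in every library, except that Cox6a2, of the plasmacytoid dendritic cell list, was at 0 in 3.

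Of 8 natural killer cell markers tested 2 rose, which is 25%, against 16.5% of all genes called higher. The sums over that list were 12.4 to 16.2 CPM in Ctrl, 16.3 to 23.2 CPM in Ctrl_Swim, 16.0 to 23.5 CPM in Model and 14.6 to 20.5 CPM in Model_Swim. Of 7 neutrophil markers 4 rose, with sums of 16.8 to 30.4 CPM in Ctrl, 21.9 to 26.1 CPM in Ctrl_Swim, 29.3 to 149 CPM in Model and 42.2 to 178 CPM in Model_Swim. Of 6 plasmacytoid dendritic cell markers, Tcf4 and Ly6d rose and Klk1 fell, and the defining marker Siglech did not pass (log2 fold change 1.71, adjusted p = 0.1003). Colonic epithelium markers fell in 5 of 10, against 16.2% of all genes called lower. Their sums were 25439 to 29016 CPM in Ctrl and 12087 to 25475 CPM in Model. The part of these cell types in the changes of the members was not tested.

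**Figure D5:**
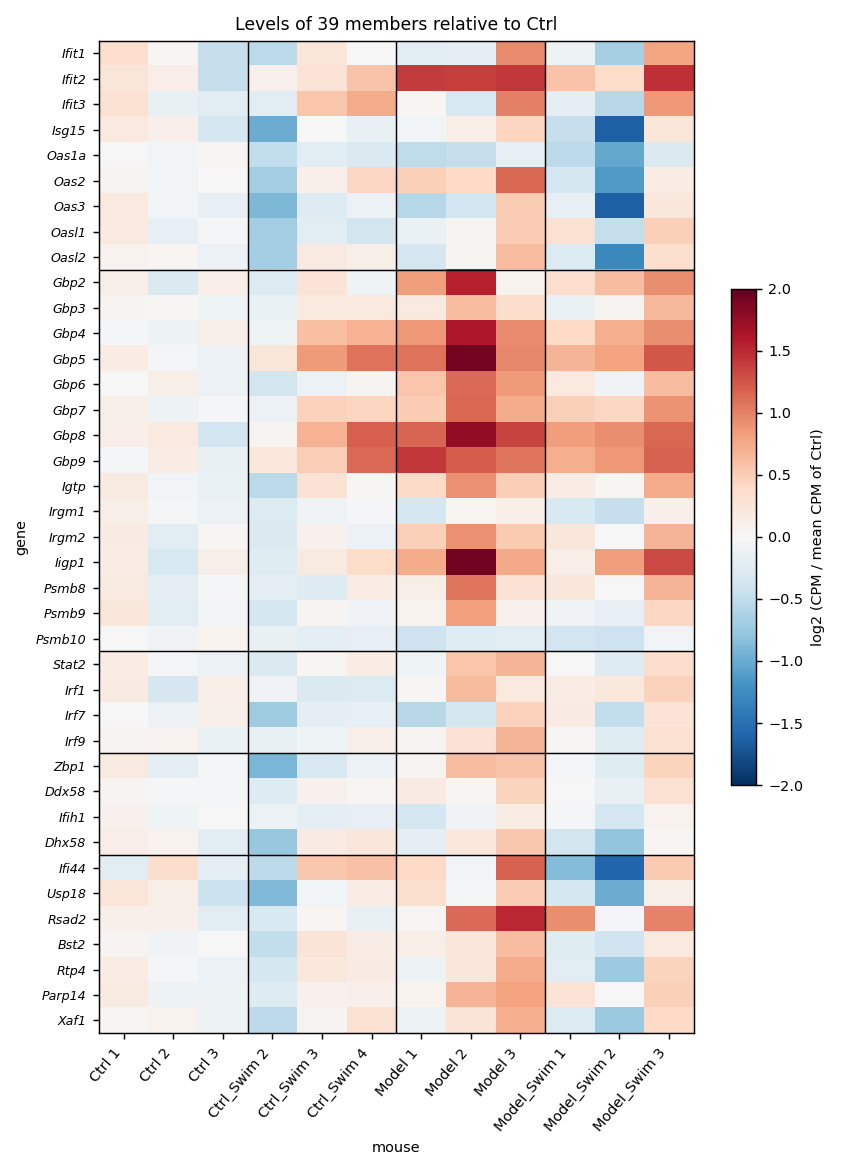
Level of each of the 39 members (rows, grouped as type I, interferon-gamma type, transcription factors, sensors and others) in each of the 12 mice (columns), as log2 of CPM over the mean CPM in Ctrl. Red is above and blue below Ctrl. Model_Swim 3 is the highest of its group in 39 of 39 rows and Ctrl_Swim 2 the lowest of its group in 35.

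Swimming in mice with AOM/DSS was examined by Model_Swim vs Model. None of the 39 members passed edgeR's test (0.071% of all genes did), 3 had an unadjusted p under 0.05 (13.6% of all genes), and DESeq2 called 1, Oas2. The estimate was lower in Model_Swim in 37 of 39 members, with a median log2 fold change of -0.31 against -0.01 over all genes. Oas2 was at 26.7, 25.3 and 42.5 CPM in Model and 15.1, 8.76 and 21.4 CPM in Model_Swim, with no overlap (-1.06 ± 0.33, adjusted p = 0.234 in edgeR and 0.0426 in DESeq2). Gbp6 (-0.59 ± 0.19) and Bst2 (-0.47 ± 0.21) also had an unadjusted p under 0.05. The groups did not overlap, with Model_Swim lower, in 2 members, Oas2 and Gbp8, against 8.57% of all genes. In the same comparison 8 of 8 B cell markers had lower estimates with no overlap and an unadjusted p under 0.05 (median log2 fold change -1.22). Of 9 T cell markers 9 had lower estimates (median -0.49), though edgeR called 0 markers of either list. Of 10 macrophage markers 8 were lower (median -0.10), and of 7 neutrophil markers 4 (median -0.20). Of 8 natural killer cell markers 7 were lower (median -0.29), and of 6 plasmacytoid dendritic cell markers 6 (median -0.30). The part of these cells was not tested.

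In Model_Swim, 1 mouse lay above the others. Ifit2 was at 28.8 and 25.1 CPM in Model_Swim 1 and 2 and 53.5 CPM in Model_Swim 3, which was above every Model mouse. Model_Swim 3 was the highest of its group in 39 of 39 members, against 33.4% of all genes, and Model_Swim 2 the lowest in 31 of 39, against 31.5% of all genes. Isg15 was at 15.4, 6.80 and 25.1 CPM and Oas3 at 48.6, 17.6 and 63.8 CPM in Model_Swim 1, 2 and 3. Without Model_Swim 3, 21 members had an unadjusted p under 0.05 in Model_Swim vs Model, and still none passed after adjustment. Leaving out the mouse highest in 39 of 39 members lowers their Model_Swim means by construction. The share of all genes was not taken for that fit, and no conclusion is drawn from the 21. Total counts of the Model_Swim libraries were 18115201 to 18589511. Model_Swim 3 also had the highest neutrophil sum of its group, at 178 CPM, and the highest macrophage sum, at 855 CPM, and their part was not tested.

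The libraries also divide by the mean log2 CPM of the pancreatic acinar genes, with Ctrl_Swim 2, Ctrl_Swim 4 and the 3 Model_Swim libraries below 0 and the others above 0, although the summed CPM of Model_Swim 1 (39.2) was above that of Ctrl_Swim 3 (37.3). This division separates the Model_Swim from the Model libraries, so the division and swimming under AOM/DSS cannot be told apart.

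Swimming without AOM/DSS was examined by Ctrl_Swim vs Ctrl. None of the 39 members passed edgeR's test (0.969% of all genes did) or DESeq2's, and 3 had an unadjusted p under 0.05 (17.6% of all genes), with a median log2 fold change of -0.04. These 3 were Gbp5 (0.77 ± 0.29), Gbp8 (0.72 ± 0.28) and Gbp9 (0.66 ± 0.21), each higher in Ctrl_Swim. The estimate was lower in Ctrl_Swim in 26 of 39 members. The groups did not overlap in 2 members with Ctrl_Swim higher and in 5 with it lower, and the share of all genes was not taken. Gbp9 was at 15.3, 18.6 and 28.9 CPM in Ctrl_Swim 2, 3 and 4, above its 11.9 to 14.7 CPM in Ctrl, and Ctrl_Swim 4 reached the level of Model. Ctrl_Swim 2 was the lowest of its group in 35 of 39 members, against 31.1% of all genes. Ctrl_Swim 4 had the highest T cell and B cell sums of its group, and their part was not tested. Outside the members, Tor3a fell by 0.59 on the log2 scale in Ctrl_Swim (adjusted p = 0.0428).

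AOM/DSS in swimming mice was examined by Model_Swim vs Ctrl_Swim. None of the 39 members passed edgeR's test (5.18% of all genes did), 4 had an unadjusted p under 0.05 (22.4% of all genes), and DESeq2 called 1, Irf1. The median log2 fold change was 0.16. Irf1 was at 134, 115 and 116 CPM in Ctrl_Swim and 156, 163 and 193 CPM in Model_Swim, with no overlap (0.49 ± 0.17, adjusted p = 0.116 in edgeR and 0.0336 in DESeq2). The other 3 were Oasl1 (0.57 ± 0.24), Rsad2 (0.83 ± 0.34) and Irgm2 (0.43 ± 0.18). Ifnar1 rose here too, by 0.32 (adjusted p = 0.0143), and Ifit1bl1, an Ifit1b-like gene, by 1.02 (adjusted p = 0.0303). Ifit2 had 0.56 ± 0.26 and the 8 Gbp genes 0.14 to 0.66 in this comparison, and none passed.

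Whether swimming changed the effect of AOM/DSS was tested by the interaction, the log2 fold change of Model_Swim vs Model minus that of Ctrl_Swim vs Ctrl. None of the 39 members passed edgeR's test (0% of all genes did), 6 had an unadjusted p under 0.05 (19% of all genes), and DESeq2 called 1, Gbp9. All 6 were negative: Gbp5 (-1.23 ± 0.40), Gbp8 (-1.20 ± 0.38), Oas2 (-1.08 ± 0.47), Gbp9 (-0.96 ± 0.30), Gbp4 (-0.93 ± 0.34) and Ifit2 (-0.84 ± 0.37). The lowest adjusted p was 0.143, of Gbp9. Leaving out Model_Swim 3, the highest of its group in all 39 members, lowers their interaction estimates by construction. In that fit 14 members had an unadjusted p under 0.05, with no share of all genes taken, and none passed after adjustment. A call in Model vs Ctrl and none in Model_Swim vs Ctrl_Swim is therefore not shown to be a difference between swimming and other mice by edgeR.

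The spread of the members between mice of a group was also measured. The SD of log2 CPM within groups had a median of 0.34 over the 39 members and 0.17 over all genes tested. It was 0.53 over the type I genes and 0.30 over the interferon-gamma type genes. Ifit2 in Model, at 51.2 ± 0.729 CPM (SD, n = 3), was an exception in a list whose Ifit1 was at 59.9 ± 29.7 CPM in the same mice.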

How the data were processed

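RNA-seq of mouse colorectal tissue was measured in 12 libraries, 3 per group, grouped by their titles. Read trimming by the authors used Trimmomatic, alignment used HISAT2 on the GRCm38.p6 build, and HTSeq-count gave the deposited counts per gene. Versions, annotation and the strand setting are not given in the sources used here. These counts are whole numbers without normalization, 17256953 to 19451055 per library. The deposited FPKM values were made by the authors with Cufflinks.

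Counts were analysed with edgeR 4.0.16 in R 4.3.3 (TMM, filterByExpr with a minimum count of 10, quasi-likelihood fit of the 4 groups, Benjamini-Hochberg over 15484 genes, called at adjusted p under 0.05). List changes use log2 CPM with a prior count of 2. FPKM were used for levels and for limma 3.58.1 on log2(FPKM + 1). Alternatives are DESeq2 1.42.0, the study's tool, other filters and scalings, a replicate block, a term for the division by pancreatic reads and each mouse left out. The tests were checked on simulated counts. Labels do not say that replicates came from separate litters or cages, and p-values measure the spread between these mice. Counting intervals and floors cover counting error only.

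The members and gene lists were chosen with earlier results of these data known. All members, detected ligands, called receptors and regulators, and the 5 largest changes called among other interferon-induced genes may be named. Promoters and positions are from RefSeq GRCm38.p6, and shared 100-base windows from GENCODE transcripts of GRCm38. One gene of the receptor and transducer list is not reported here.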

Additional observations from a re-analysis of the deposited data

How the results depend on the processing

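The number of members called in Model vs Ctrl was 13 and ranged from 7 to 15 as each mouse was left out. It was 7 without Ctrl 2 and without Model 2 and 8 without Ctrl 3. Calls over all genes fell in these fits too, from 5066 of 15484 genes with every mouse. They were 3160 of 15722 without Ctrl 2, 3600 of 15668 without Model 2 and 3273 of 15719 without Ctrl 3. The number of members called was 7 with the fold limit, where smaller changes are dropped by construction. DESeq2 called 14, limma 10 to 12, and 12 were called with the replicate block, 10 higher and 2 lower. Of 15 pairs of same-numbered mice in different groups, 4 had a correlation of deviations over 0.1 (range -0.261 to 0.564). Pairs with different numbers were not measured, so whether replicate numbers pair the mice cannot be told. The other comparisons had 0 calls, 0 to 0 with any mouse left out, except that DESeq2 called 1 in Model_Swim vs Model, 1 in Model_Swim vs Ctrl_Swim and 1 in the interaction, and a fit of only the groups compared called 1 in Model_Swim vs Ctrl_Swim (Irf1). The cause of these differences was not tested. The type I minus interferon-gamma type difference ranged from -0.99 to -0.28. Of the single-gene results under alternatives, 4026 stayed on the same side of the threshold, 20 gained and 49 lost a call, and no call turned direction. In Model vs Ctrl the estimates of 8 members without a call changed sign in some alternative: Ifit1 (-0.18 to 0.51), Ifit3 (-0.11 to 0.62), Irf7 (-0.44 to 0.11), Oas3 (-0.47 to 0.14), Oasl1 (-0.02 to 0.31), Oasl2 (-0.11 to 0.38), Irgm1 (-0.14 to 0.10) and Ifih1 (-0.20 to 0.05).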
